A study of Mus musculus with 6 samples.

Results

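The genes described here are 8 members of the Wnt signalling pathway, followed across cell types, genotypes and stages of the embryonic mouse pancreas. They were taken by name, as genes with a defined place in the pathway. Their measured values were not part of the rule, but earlier results of these data were known when they were chosen. They are Wnt5a, Rspo3, Fzd2, Lgr5, Sfrp1, Sfrp5, Lef1 and Axin2, 8 of the 31028 gene symbols of the RNA matrix, and 7 of them are among the 8269 symbols of both ATAC matrices, which do not list Lgr5.

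Wnt proteins are secreted ligands that bind Frizzled receptors on a receiving cell. In the canonical branch this stabilises beta-catenin, which joins TCF/LEF factors in the nucleus and turns on target genes, and other ligands act through branches that control cell shape and movement. In the pancreatic bud, Wnt ligands and R-spondins from the surrounding mesenchyme act on the epithelium, and secreted Frizzled-related proteins bind Wnt ligands outside the cell.

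All embryos were C57BL/6 mice. Those labelled Ptf1a+/+ are the wild type (WT), and the others (KO) carried Ptf1aenh-delta/enh-delta, a homozygous deletion of an enhancer of Ptf1a, which encodes a transcription factor that the early pancreas needs. At embryonic day 10.5 (E10.5), hand-dissected tissue of multipotent pancreatic progenitors, pooled from 5 to 9 embryos a dataset, gave 1 single-cell RNA library and 1 single-cell ATAC library of each genotype. At E13.5, pancreas pooled from 6 embryos a dataset gave 1 single-cell ATAC library of each genotype. RNA sequencing counts transcript molecules by their unique molecular identifiers (UMIs), and ATAC sequencing reads open chromatin through the cuts of a transposase. With 1 library in each group, no difference below has a replicate check. The intervals are exact 95% intervals that cover counting error only, and no p-value is given.

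The sequence below is shown because Sfrp5 is the member that was higher in KO over all cells in RNA at E10.5 and in open chromatin at both stages, and most of the results on genotype turn on it. It is the stretch of 250 bases before the start of Sfrp5, at chr19:42202253-42202502 on the reverse strand (RefSeq, GRCm38.p6), printed 5′ to 3′ along the gene. The capitals mark its match to the E-box CACCTG, a core motif that dimers holding PTF1A bind, read here on the opposite strand and lying 229 bases before the start.
Sfrp5: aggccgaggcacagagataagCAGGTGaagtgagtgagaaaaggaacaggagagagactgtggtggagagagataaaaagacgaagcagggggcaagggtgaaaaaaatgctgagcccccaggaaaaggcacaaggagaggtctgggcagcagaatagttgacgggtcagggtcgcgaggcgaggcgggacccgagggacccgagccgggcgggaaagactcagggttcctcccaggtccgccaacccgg
CACCTG, searched on both strands, is held by 17.2% of the 32851 RefSeq promoter windows of this length. The motif TTTCCCA, the other core of the PTF1 site, is held by 6.82% of them and was not found in this window. The Sfrp5 window was 59.6% G and C, against a median of 52.4% over all windows. Promoter windows were matched for 3 of the 8 members. A match of letters is a description of the window and not a site.

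In the annotation of GRCm38 (GENCODE M21), all 8 members are protein-coding genes. Sfrp5 lies at chr19:42197971-42202252 and Sfrp1 at chr8:23411502-23449632. Wnt5a lies at chr14:28504750-28527448, and Rspo3 at chr10:29452416-29535867. Fzd2 lies at chr11:102604396-102608058, and Axin2 is on the same chromosome at chr11:108920349-108950783. Lef1 lies at chr3:131110471-131224356, and Lgr5 is on the chromosome of Rspo3 at chr10:115450311-115587780.

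The RNA libraries held 1104 WT and 815 KO barcodes with 4665222 and 4360076 UMIs. Of the barcodes, 451 and 369 passed a minimum of 1000 detected genes (median 6700 and 9856 UMIs a cell). The libraries shared 1 barcode. Ptf1a checked the labels: it had 142 UMIs in the kept WT cells and 0 in the kept KO cells, which allows a level of up to 0.748 CPM (UMIs of a gene per 1000000 UMIs of the cells). The ATAC libraries held 838 WT and 700 KO cells at E10.5 and 2314 and 602 at E13.5, with 0 and 2 barcodes shared between the genotypes. The values that follow are for clusters named from marker genes, and clustering used neither Ptf1a nor any gene of the Wnt list. The mesenchyme-like class held 153 WT and 101 KO cells, the progenitor-like class 108 and 36, the hepatobiliary-like class 22 and 39, and the endocrine-like class 47 and 89.

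The classes were checked against their markers before the members were read in them. Pdx1, the defining factor of pancreatic progenitors, had a UMI in 86.1% of WT and 80.6% of KO progenitor-like cells. The mesenchyme-like cells were shallow, with a median of 2454 and 2535 UMIs against 13017 and 16906 in the progenitor-like cells. Col3a1, a collagen of mesenchyme, had a UMI in 43.1% and 45.5% of them, and the epithelial gene Epcam in 29.4% and 31.7%. The Epcam-positive cells were the fewer but deeper ones. In WT, 3 UMIs were 10.0 CPM over the 108 cells without Epcam UMIs and 5.47 CPM over the 45 with them. In KO, 3 UMIs were 14.3 CPM over 69 cells and 8.06 CPM over 32. The levels of the class thus weigh the Epcam-positive cells most, and the split by Epcam is also one by depth. The class is therefore also read below without its Epcam-positive cells. Cluster 4 was led by mesenchyme genes but had Epcam UMIs in 96.4% of its WT and 80.4% of its KO cells, and UMIs of Neurod1, a factor of endocrine cells, in 92.9% and 89.1%. Its endocrine markers summed to 20661 CPM in WT and 14697 in KO, against 1367 and 1718 for its mesenchyme markers, so it was left unnamed. At least 3 endothelial markers were present in 5 of the 22 WT and 2 of the 39 KO hepatobiliary-like cells.

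In the WT pancreas at E10.5, 5 of the 8 members had their highest level in the mesenchyme-like class (Wnt5a, Rspo3, Sfrp1, Lef1 and Lgr5), 2 in the progenitor-like class (Fzd2 and Sfrp5) and 1 in the endocrine-like class (Axin2). The intervals of the highest and the next class were apart for Sfrp1, Sfrp5 and Rspo3, and overlapped for the other 5. In the KO library 4 members were highest in the mesenchyme-like class and 2 in the progenitor-like class, with Axin2 again highest in the endocrine-like class and Lgr5 in the hepatobiliary-like class. In KO the intervals of the top pair of classes were apart for Sfrp1 alone.

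**Figure D1:**
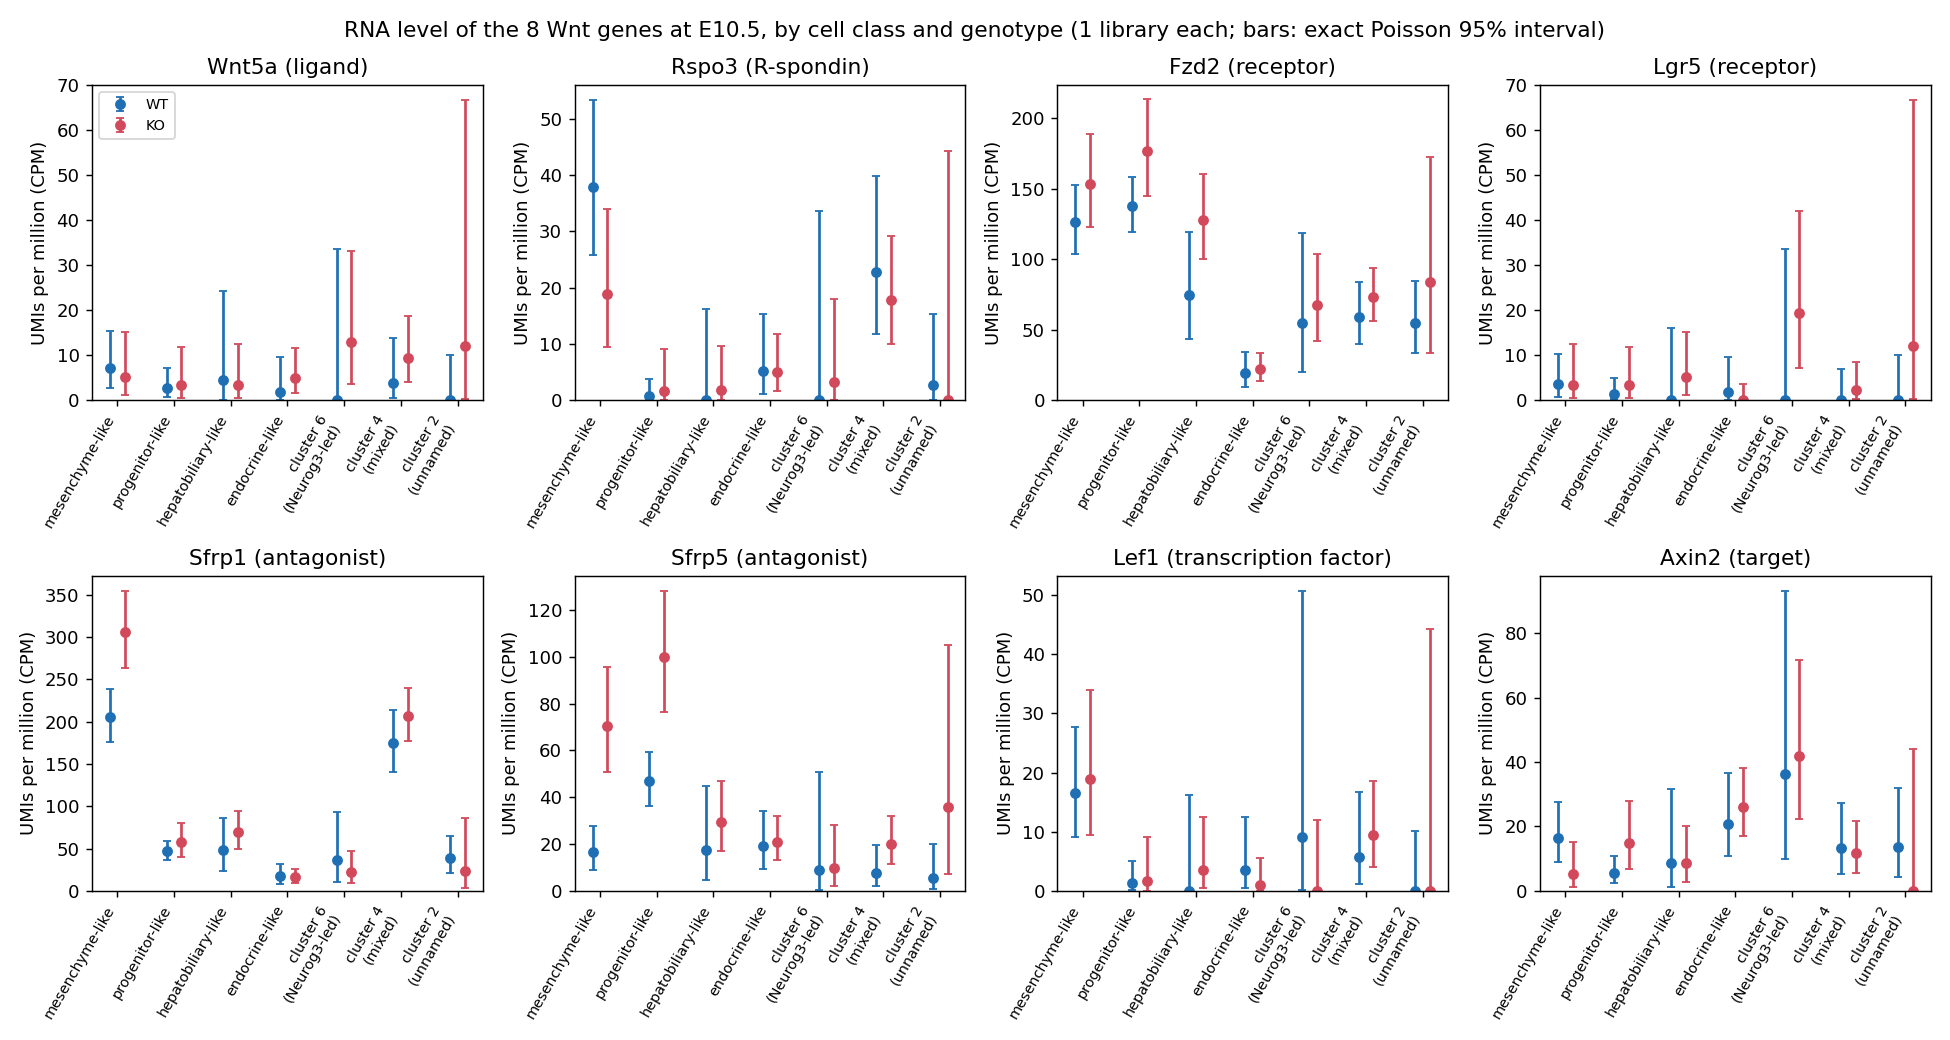
RNA level of each of the 8 members (vertical axis, CPM) at E10.5 in the 4 named cell classes and in the unnamed clusters 6, 4 and 2, for WT and KO. Points are 1 library each and bars are exact 95% Poisson intervals. Sfrp1 stands at 205 and 306 CPM in the mesenchyme-like class, and Sfrp5 at 46.7 and 99.8 in the progenitor-like class.

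Among the ligands, Wnt5a, which acts mainly through the non-canonical branch, was near the limit of detection. It had 39 UMIs in all kept cells, 14 in WT and 25 in KO. Its level in the mesenchyme-like class was 7.08 CPM in WT (6 UMIs) and 5.16 in KO (3 UMIs). In the progenitor-like class it was 2.75 and 3.27 CPM, in the hepatobiliary-like class 4.37 and 3.45, and in the endocrine-like class 1.74 and 5.00. The intervals of all 4 classes overlapped within each library, so no order of classes is read for Wnt5a at this depth.

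Rspo3 encodes a secreted R-spondin, which raises the number of Frizzled receptors on a cell by holding back the ligases that remove them. In WT it stood at 37.8 CPM in the mesenchyme-like class (32 UMIs, 25.8 to 53.3), 5.22 in the endocrine-like class, 0.687 in the progenitor-like class (1 UMI) and 0 in the hepatobiliary-like class, where 0 UMIs allow up to 13.1 CPM. The progenitor-like cells were the deeper ones, yet 0.926% of them had an Rspo3 UMI against 16.3% of the mesenchyme-like cells. The mixed cluster 4, which carries endocrine and mesenchyme markers, was next at 22.8 CPM in WT and 17.7 in KO. The WT mesenchyme-like class held 32 UMIs of Rspo3, and the progenitor-like and hepatobiliary-like classes together held 1.

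In the KO mesenchyme-like class Rspo3 stood at 18.9 CPM (11 UMIs, 9.45 to 33.9). The ratio of KO to WT was 0.501, with an interval of 0.228 to 1.02 that takes in 1. The lower KO value was seen in the Epcam-positive cells of the class, where Rspo3 had 22 UMIs in 45 WT cells and 3 in 32 KO cells (40.1 and 8.06 CPM). The ratio there was 0.201, with an interval of 0.0385 to 0.669 that leaves out 1. In the cells with 0 Epcam UMIs it had 10 UMIs in WT and 8 in KO, at 33.5 and 38.3 CPM. The ratio in mesenchyme-like cells without Epcam was 1.14 (0.392 to 3.22), so a difference in Rspo3 was not detectable there at this depth.

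Among the receptors, Fzd2, a Frizzled that binds Wnt ligands at the cell surface, was present in progenitors, mesenchyme and hepatobiliary cells and low in endocrine cells. In WT its level was 137 CPM in the progenitor-like class (200 UMIs, 119 to 158), 126 in the mesenchyme-like class (107 UMIs, 104 to 153), 74.3 in the hepatobiliary-like class (17 UMIs, 43.3 to 119) and 19.1 in the endocrine-like class (11 UMIs, 9.55 to 34.2). The mesenchyme-like interval overlapped those of the progenitor-like and hepatobiliary-like classes, which were just apart from each other, and the endocrine-like class lay below all of them. In KO the levels were 177, 153, 128 and 22.0 CPM in the same order, and the endocrine-like class was again apart. A UMI of Fzd2 was found in 82.4% of WT and 80.6% of KO progenitor-like cells, and in 19.1% of the endocrine-like cells of either library.

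The KO level of Fzd2 was 1.29 times the WT level in progenitor-like cells (1.01 to 1.63), 1.21 times in mesenchyme-like cells (0.905 to 1.62) and 1.72 times in hepatobiliary-like cells (1.00 to 3.11). These intervals reach 1 or come close to it, and the median log2 ratio of all genes in the progenitor-like class was 0.18. Over all kept cells the levels were 95.5 CPM in both libraries, of which the KO library held more endocrine-like cells and fewer progenitor-like ones.

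Lgr5, a receptor for R-spondins and a known stem cell marker of other gut epithelia, was barely detected, with 6 UMIs in the kept WT cells and 16 in the kept KO cells. In the named classes it had 0 to 3 UMIs each. The KO cells of cluster 6, which is led by the endocrine commitment factor Neurog3 and stayed unnamed, held 6 UMIs in 3 of 39 cells, and the 12 WT cells of that cluster held 0. These 6 UMIs are more than in any other cluster, and 12 WT cells are too few to tell an absence: 0 UMIs there allow up to 27.3 CPM.

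The secreted antagonist Sfrp1, which binds Wnt ligands and keeps them from Frizzleds, was highest in mesenchyme in both genotypes. Its WT level was 205 CPM in the mesenchyme-like class (174 UMIs, 176 to 238), 48.1 in the hepatobiliary-like class (11 UMIs, 24.0 to 86.0), 46.7 in the progenitor-like class (68 UMIs, 36.3 to 59.3) and 17.4 in the endocrine-like class (10 UMIs, 8.34 to 32.0). The KO levels were 306 CPM (178 UMIs, 263 to 355), 69.0 and 57.3 in the next pair, and the endocrine-like class held 16 UMIs. The mesenchyme-like class lay above the other 3 in both libraries, and cluster 4 followed it at 175 CPM in WT and 207 in KO.

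Set against the progenitor-like and hepatobiliary-like cells together, the mesenchyme-like cells had 4.38 times the Sfrp1 level in WT (205 against 46.9 CPM, 3.34 to 5.79) and 4.86 times in KO (306 against 63.0 CPM, 3.69 to 6.46). For a comparison over all genes, ratios were taken as log2 of CPM plus 10, for genes with at least 50 UMIs, and a gene was called where the log2 ratio was at least 1 in size. Sfrp1 had log2 ratios of 1.92 and 2.12 here and was the only called member of the 3 that could be tested (Sfrp1, Sfrp5 and Fzd2) in either library. Over all genes 4.85% were called in WT and 3.55% in KO. Fzd2 was nearly equal between these cells, with log2 ratios of -0.03 and 0.00. Sfrp5 had -0.99 in WT, at 16.5 CPM in mesenchyme-like and 42.8 in the epithelial cells, and 0.09 in KO.

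Between genotypes, Sfrp1 was higher in KO mesenchyme-like cells by a ratio of 1.49 (1.20 to 1.85, log2 0.55). In the cells of the class without Epcam UMIs the levels were 221 CPM in WT (66 UMIs) and 297 in KO (62 UMIs), a ratio of 1.34 whose interval, 0.934 to 1.93, takes in 1. In progenitor-like cells the ratio was 1.23 (0.791 to 1.87), and in hepatobiliary-like cells 1.44 (0.723 to 3.10). The endocrine-like class had 10 and 16 UMIs at nearly the same level. No class gave Sfrp1 a log2 ratio of 1.

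Sfrp5, the other secreted Frizzled-related protein among the members, was highest in progenitors in WT and lowest in the mesenchyme-like class, where Sfrp1 was highest. It stood at 46.7 CPM in the progenitor-like class (68 UMIs, 36.3 to 59.3), 19.1 in the endocrine-like class (11 UMIs), 17.5 in the hepatobiliary-like class (4 UMIs) and 16.5 in the mesenchyme-like class (14 UMIs, 9.03 to 27.7). The progenitor-like class was above the mesenchyme-like and endocrine-like ones beyond their intervals, and the other 3 could not be ordered.

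In KO, Sfrp5 was higher in the progenitor-like cells, at 99.8 CPM (61 UMIs in 36 cells, 76.3 to 128). The intervals of WT and KO did not overlap, and the ratio was 2.14 (1.49 to 3.06, log2 0.95). At least 1 UMI of Sfrp5 was found in 26.9% of WT progenitor-like cells (18.8 to 36.2) and in 72.2% of KO ones (54.8 to 85.8). In endocrine-like cells, where the level was low, the shares were 17.0% and 18.0%, at a median of 11869 and 10855 UMIs a cell. KO cells were deeper, so each cell was also thinned to 2000 UMIs, which left out 1 WT and 2 KO cells as shallower. The shares were then 10.3% in WT (5.24 to 17.7) and 26.5% in KO (12.9 to 44.4), and these intervals overlap. Sfrp5 and Fzd2 were found together in 24.1% of WT and 66.7% of KO progenitor-like cells, before thinning. Sfrp5 without Fzd2 was found in 3 WT and 2 KO cells, so these shares largely restate those of Sfrp5.

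The marker levels of the progenitor-like class also differed between the libraries. The hepatobiliary markers, 16 genes, summed to 932 CPM in WT progenitor-like cells and 2377 in KO ones, with Sox17 at 0 in KO. The progenitor markers, 12 genes, summed to 1833 and 1280 CPM, with Ptf1a, Cpa1 and Rbpjl at 0 in KO, and the 6 gut markers to 25.4 and 113 CPM. The part of these markers in the Sfrp5 difference was not tested. In the finer cluster at resolution 0.8 that held 34 of the 36 KO cells and 57 of the 108 WT cells, Sfrp5 stood at 65.3 CPM in WT and 100 in KO, a ratio of 1.54 (1.06 to 2.24, log2 0.55). At resolution 1.0, which left 15 KO cells in the class, the log2 ratio was 0.33.

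In the mesenchyme-like class Sfrp5 was at 16.5 CPM in WT (14 UMIs) and 70.5 CPM in KO (41 UMIs, 50.6 to 95.7), a ratio of 4.27 (2.28 to 8.48, log2 1.60). Nearly all of these UMIs lay in the cells with Epcam: 13 UMIs in 45 WT cells and 38 in 32 KO cells, at 23.7 and 102 CPM. The 108 WT and 69 KO cells without Epcam UMIs held 1 and 3 UMIs of Sfrp5. The Epcam-positive KO cells stood at 102 CPM against 99.8 in the KO progenitor-like class, and the WT ones at 23.7 against 46.7. Where these UMIs came from was not tested. Of the mesenchyme-like cells without Epcam, it can be said that Sfrp5 was at or under the floor of 3 UMIs in both libraries.

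**Figure D2:**
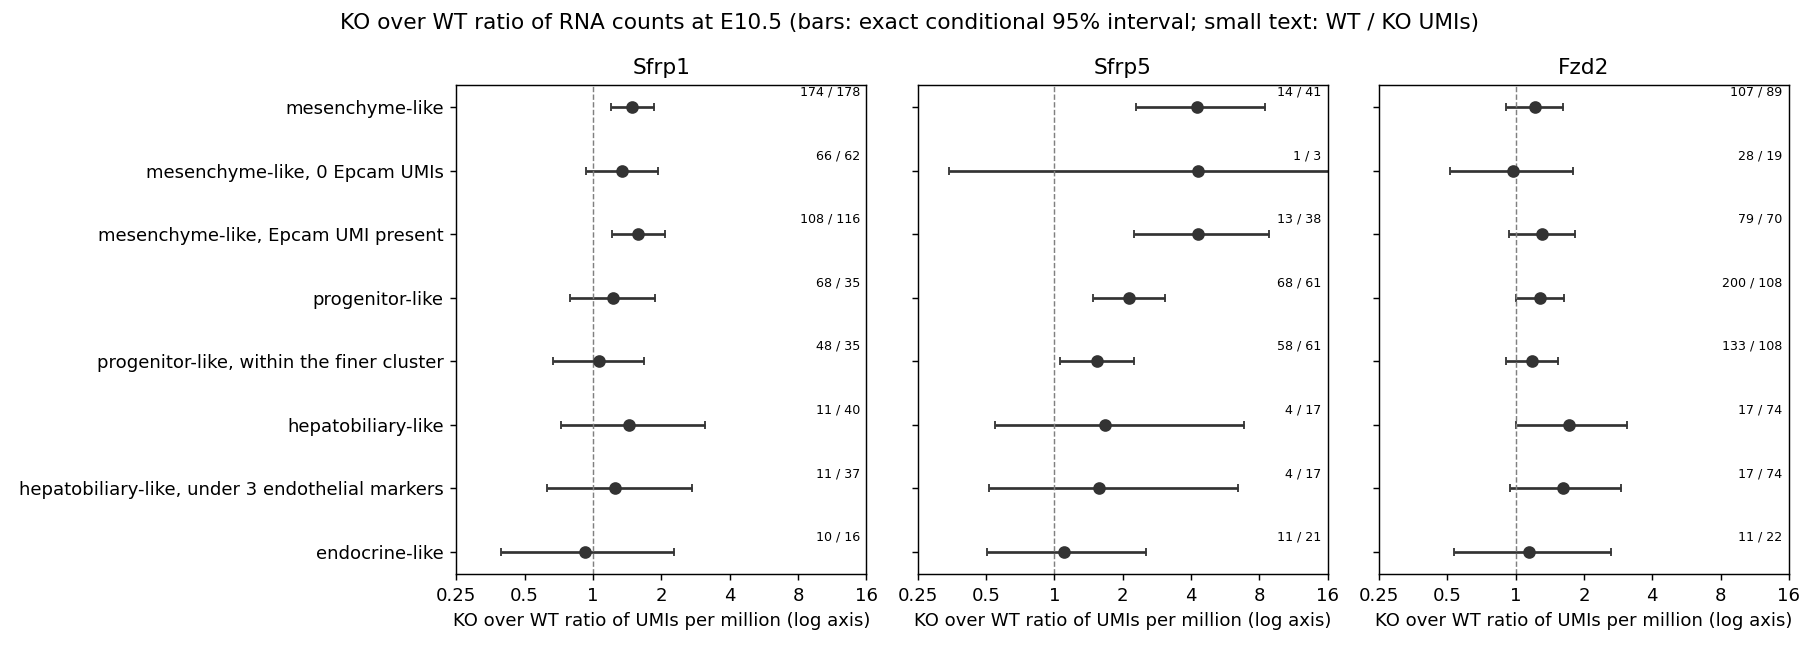
KO over WT ratio of CPM (horizontal log axis) of Sfrp1, Sfrp5 and Fzd2 in the named cell classes and in the subsets described in the text, with exact 95% conditional intervals as bars, 1 library of each genotype and the WT and KO UMIs in small print. The Sfrp5 ratio is 2.14 in the whole progenitor-like class and 1.54 in its finer cluster. Its interval in mesenchyme-like cells with 0 Epcam UMIs, which rests on 1 and 3 UMIs, runs past the axis to 225.

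In the other named classes the intervals of Sfrp5 took in 1. It stood at 17.5 CPM in WT and 29.3 in KO hepatobiliary-like cells (4 and 17 UMIs, ratio 1.68, 0.547 to 6.85), and had 11 and 21 UMIs in endocrine-like cells (ratio 1.10, 0.506 to 2.52). Over all kept cells it was 25.3 CPM in WT and 40.6 in KO, a ratio of 1.60 (1.25 to 2.07). The share of progenitor-like cells was 23.9% in WT and 9.76% in KO, and its part in this ratio was not tested.

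Lef1 encodes a TCF/LEF factor that carries the canonical signal to DNA and is itself a target in many tissues. It had 45 UMIs in all, 25 of them in the mesenchyme-like class, at 16.5 CPM in WT (14 UMIs) and 18.9 in KO (11 UMIs). The other named classes had at most 2 UMIs of Lef1 in a library, at 3.48 CPM or less. The mesenchyme-like cells held 14 UMIs in WT against 2 in the progenitor-like and hepatobiliary-like cells together, a ratio of 13.9 with a wide interval (3.20 to 126). The genotypes did not differ detectably in the mesenchyme-like class (ratio 1.15, 0.471 to 2.72).

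Axin2, a scaffold of the beta-catenin destruction complex and a general target of the canonical branch, was highest in the endocrine-like class, at 20.9 CPM in WT (12 UMIs, 10.8 to 36.5) and 26.0 in KO (26 UMIs, 17.0 to 38.1). The Neurog3-led cluster 6 stood higher still, at 36.4 CPM in WT (4 UMIs) and 42.0 in KO (13 UMIs), with intervals that overlap those of the endocrine-like class. In mesenchyme-like cells Axin2 was 16.5 CPM in WT (14 UMIs) and 5.16 in KO (3 UMIs), a ratio of 0.312 (0.0576 to 1.12). In progenitor-like cells it was 5.50 CPM in WT (8 UMIs) and 14.7 in KO (9 UMIs), a ratio of 2.68 (0.917 to 7.98). Both intervals take in 1, so neither difference was beyond counting error. Against the progenitor-like and hepatobiliary-like cells together, the endocrine-like cells had 3.51 times the Axin2 level in WT (1.39 to 9.08) and 2.21 times in KO (1.11 to 4.59).

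Fzd2 ran the other way in the same comparison: the endocrine-like cells had 0.148 times the level of the epithelial cells in WT (0.0730 to 0.271) and 0.144 times in KO (0.0881 to 0.225). Sfrp5 had 0.447 times (0.214 to 0.849) and 0.321 times (0.188 to 0.525). Sfrp1 had 0.371 times (0.171 to 0.718) and 0.254 times (0.138 to 0.440). By the rule for all genes, 2 of the 3 members tested were called lower in WT (Fzd2 and Sfrp1, with Sfrp5 at log2 -0.86), where 17.3% of all genes were called. In KO 3 of 3 were called lower, where 18.1% of all genes were called.

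By the rule for all genes, 3 members had enough UMIs for a log2 ratio of KO to WT in mesenchyme-like cells, 3 in progenitor-like cells, 2 in hepatobiliary-like cells and 0 in endocrine-like cells. Sfrp5 in the mesenchyme-like class was the only one called, 1 of 3, where 0.786% of all genes tested were called. Most of its UMIs there were from KO (14 in WT and 41 in KO), and 13 and 38 of them lay in Epcam-positive cells. Rspo3 (32 and 11 UMIs) and Axin2 (14 and 3), at lower levels in KO, stayed under the minimum and could not be called. The 1 of 3 thus depends on which members reached the minimum, and is not read as an excess over all genes. In the progenitor-like class 0 of 3 members were called, against 3.08% of all genes, with Sfrp5 just under the line at 0.95. The median log2 ratio of all genes was 0.18 in this class, and after median-of-ratios scaling, which takes that shift out, Sfrp5 was at 0.77. In the hepatobiliary-like class 0 of 2 were called, against 2.4% of all genes, and in the endocrine-like class none could be tested, while 0.514% of all genes were called.

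The wider pathway was read from a list of 82 genes, the members included. Of these, 12 had 0 UMIs in the kept cells and 45 had 50 or more. Ligands were the role with the smallest share of detected genes: 8 of 19 Wnt genes had 0 UMIs and 4 had 50 or more, while 16 of 18 receptors and co-receptors and 9 of 9 intracellular components had 50 or more. In progenitor-like cells 23 genes of the list were tested for KO over WT, and 17 were above 0. Of them 1 was called higher and 0 lower, near the share of 3.08% called over all genes. Their median was 0.34 against 0.18 for all genes, which was itself above 0. In mesenchyme-like cells 20 were tested, 1 was called higher (Sfrp5) and 0 lower, where 0.786% of all genes were called. This count also leaves out Rspo3 and Axin2, which stayed under the minimum there. The median there was 0.23 against 0.06. In hepatobiliary-like cells 10 were tested and 0 were called, against 2.4% of all genes, with a median of -0.11 against 0.08. In endocrine-like cells 14 were tested and 0 called, against 0.514% of all genes, with a median of 0.11 against 0.08.

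The gene called higher in progenitor-like cells was Wnt16, a Wnt ligand, at 21.3 CPM in WT (31 UMIs) and 60.5 in KO (37 UMIs), a ratio of 2.84 (1.72 to 4.74, log2 1.17). With cells thinned to 2000 UMIs, or with a pseudocount of 50 CPM, 0 genes of the list were called in this class. The part of the hepatobiliary markers in this value, which summed to 932 CPM in WT and 2377 in KO in the same class, was not tested. In mesenchyme-like cells Wnt16 had 0 UMIs in WT and 10 in KO (17.2 CPM). The KO value was 4.86 times a floor of 3 UMIs over the WT class. This leaves out the counting error of the KO UMIs, and Wnt16 was not split by Epcam. Wls, which carries Wnt ligands to the cell surface, was 24.7 CPM in WT and 47.4 in KO progenitor-like cells (ratio 1.92, 1.13 to 3.22). Ctnnb1, beta-catenin itself, was 294 and 486 CPM there (ratio 1.65, 1.42 to 1.92), and Tcf7l2, the TCF factor with the highest level, 155 and 216 CPM (ratio 1.40, 1.12 to 1.74). Wls, Ctnnb1 and Tcf7l2 were not called. Their ratios are not scaled for the median gene of the class, which was itself higher in KO at log2 0.18.

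Not every gene of the list stood higher in KO progenitor-like cells. Ccnd1, a cyclin and a target of the canonical branch in some tissues, was 877 CPM in WT and 604 in KO (ratio 0.688, 0.611 to 0.773). Znrf3, a ligase that removes Frizzleds and is held back by R-spondins, had 16 UMIs in WT and 1 in KO (ratio 0.149, 0.00355 to 0.958). Wnt4, the ligand with the highest WT level, was at 73.0 CPM in WT and 97.1 in KO endocrine-like cells (ratio 1.33, 0.916 to 1.96), where Axin2 was also highest.

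**Figure D3:**
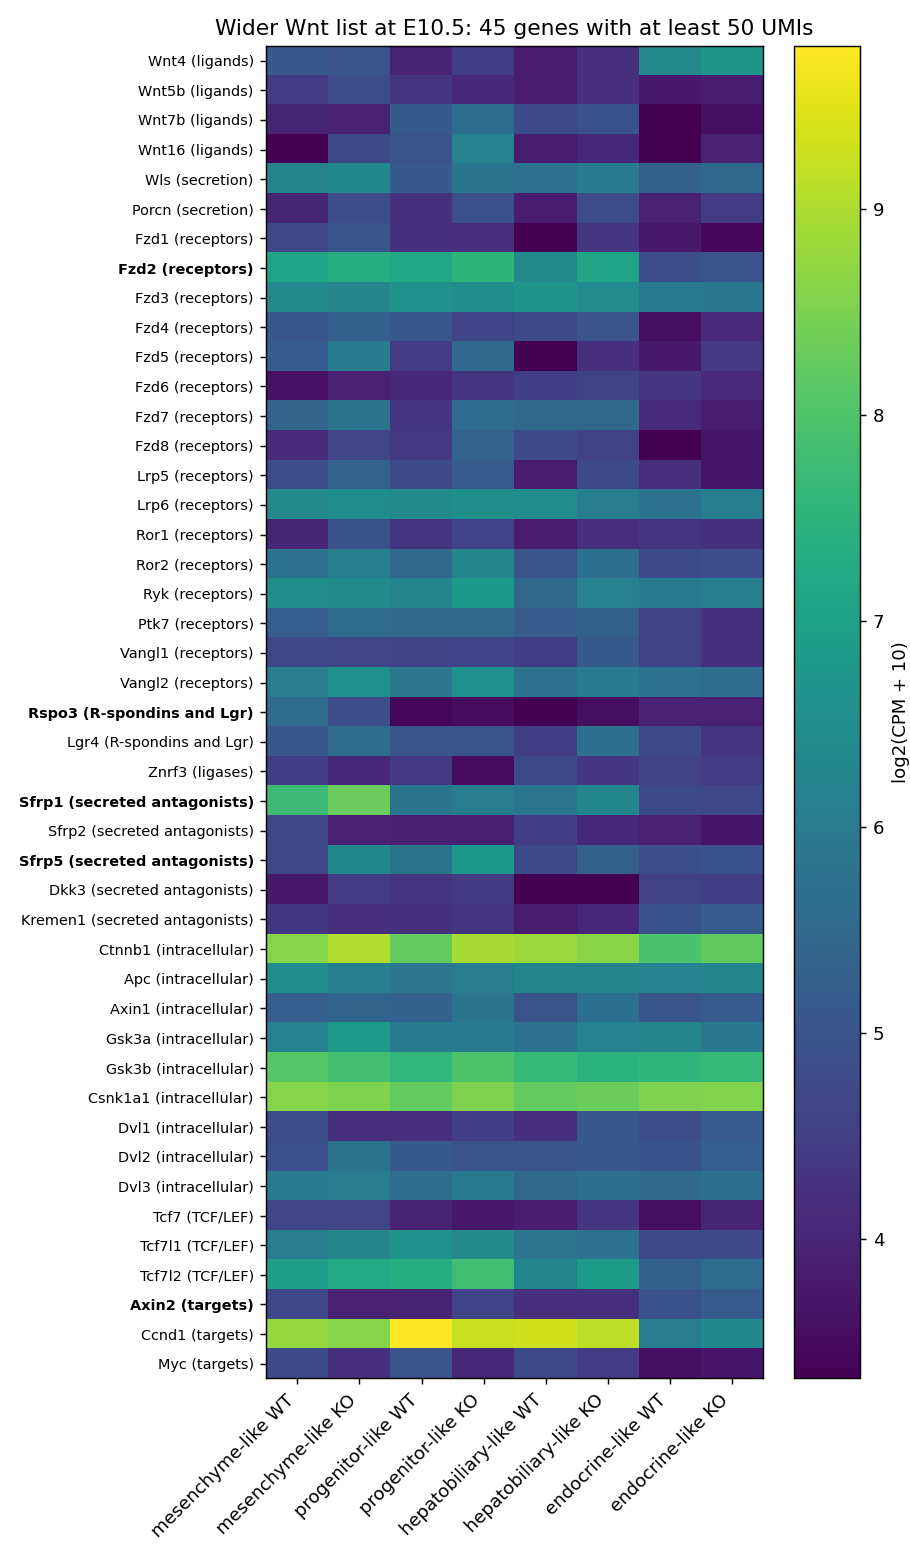
Heat map of log2 of CPM plus 10 (colour scale) for the 45 genes of the wider Wnt list with at least 50 UMIs in the kept cells, in rows by role, over the 4 named cell classes of the WT and the KO library in columns, with the members in bold. Ccnd1 and Ctnnb1 are among the brightest rows, Sfrp1 is brightest in the mesenchyme-like columns, and Wnt16 is brightest in the KO progenitor-like column.

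For the 5 members with at least 50 UMIs, the genes with the most similar RNA pattern were sought over 16 points, the cluster sums of both libraries, by Pearson correlation among 10367 genes. The points share library and depth, and the correlations are a description. Sfrp1 was most like Tle4 (r = 0.914), Bcl11a and Akap12 (both 0.912). Rspo3 was most like Dclk1 (0.932) and the transcription factor genes Hoxb4 (0.914) and Nkx2-3 (0.910). Fzd2 was most like Tead2 (0.939), Sparc (0.935) and Zfp36l1 (0.933). Sfrp5 was most like Prr36 (0.875), Sptssb and Zfp811 (both 0.854). Axin2 was most like Ap3s2 (0.886), Irak1bp1 (0.879) and Cyth1 (0.878).

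The ATAC matrices give for each gene a signal of open chromatin, scaled so that the genes of a cell sum to 10000. No ATAC cluster met the criteria for a mesenchyme-like, progenitor-like or hepatobiliary-like name, so chromatin is given for all cells, for clusters by number and for an endocrine-like cluster. A gene was called where the log2 ratio of mean signal was at least 0.5 in size. At E10.5, over all cells, the 7 listed members lay close together in the genotypes. Sfrp5 had the highest mean signal ratio, 2.89 in WT and 3.36 in KO (log2 0.22), and it ranked 470 from the top of 8219 genes.

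The other 6 members had log2 ratios between -0.14 (Wnt5a) and 0.06 (Sfrp1) at E10.5. Wnt5a had a mean signal of 1.47 in WT and 1.33 in KO, and Rspo3 0.522 and 0.495. Fzd2 stood at 2.47 and 2.45, Sfrp1 at 1.01 and 1.05, Lef1 at 1.09 and 1.00, and Axin2 at 1.5 and 1.53. Of the 7 members 0 were called, where 0.645% of all genes were. In the endocrine-like cluster, 58 WT and 65 KO cells, Sfrp1 was 0.786 in WT and 0.490 in KO (log2 -0.68), 1 of 7 members called against 16.3% of all genes in so few cells. Fzd2 was 2.04 and 1.60 there, and Sfrp5 3.03 and 2.92.

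At E13.5 the libraries differed in their cells. A cluster led by erythroid genes held 6.05% of WT and 45.2% of KO cells. In that cluster most members had little signal: Fzd2 had a mean of 0.140 in WT and 0.199 in KO, Lef1 0.0365 and 0.152, and Sfrp1 0.0445 and 0.105, whereas Sfrp5 kept 1.52 and 1.34. The barcodes of the E13.5 libraries also carry different months for WT and KO, so a difference between genotypes at this stage cannot be told apart from one between those months. The values are therefore given with and without the erythroid-led cluster.

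Over all E13.5 cells, 2 of 7 members were called lower in KO, against 25.4% of all genes called: Lef1 at 0.885 in WT and 0.506 in KO (log2 -0.81), and Sfrp1 at 0.752 and 0.485 (log2 -0.63). Fzd2 was 2.05 and 1.48 (log2 -0.47), Wnt5a 0.802 and 0.658, Axin2 1.39 and 1.12, and Rspo3 0.357 and 0.309. Only Sfrp5 was higher in KO, at 2.09 and 2.40. Without the erythroid-led cluster, Sfrp1 was equal, 0.797 and 0.799, Fzd2 was 2.18 and 2.54 (log2 0.22), and Lef1 was 0.940 and 0.798 (log2 -0.24). Wnt5a was 0.850 and 1.08 (log2 0.34), Rspo3 0.371 and 0.487 (log2 0.39), and Axin2 1.44 and 1.54 (log2 0.10). Neither Lef1 nor Sfrp1 was called over these remaining cells, and Fzd2, Wnt5a, Rspo3 and Axin2 were on the other side of 0.

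Sfrp5 was the 1 member of 7 called once the erythroid-led cluster was left out, against 3.72% of all genes. Its mean signal was then 2.13 in WT and 3.28 in KO (log2 0.63), rank 79 of 8227 genes. The share of cells above 0 was higher in KO for all 7 members over these cells, for Sfrp5 (60.7% and 83.6%) as for Lef1 (45.8% and 62.4%), whose mean signal was lower in KO, so it sets Sfrp5 apart from no other member. In cluster 0 alone, with 944 WT and 224 KO cells, it was 1.90 and 3.28 (log2 0.79), rank 38 of 8230, and again the only 1 of 7 called, against 2.96% of all genes. Cluster 0 has Rbpjl, of the progenitor markers, Hhex, of the hepatobiliary markers, and the member Fzd2 among its leading genes. Its KO cells were deeper, with a median of 6005 genes above 0 against 4504 in WT. In cluster 0 the progenitor markers summed to a mean signal of 46.9 in WT and 34.4 in KO, and the hepatobiliary markers to 18.6 and 21.7. The part of depth and of these markers in the Sfrp5 difference was not tested.

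Wnt5a was next to Sfrp5 in cluster 0, at 0.796 in WT and 1.09 in KO (log2 0.46), under the line for a call. Cluster 1 at E13.5 was shallow and held 874 WT and 59 KO cells. There Sfrp5 was 2.16 in WT and 2.98 in KO, Fzd2 1.71 and 3.10, and Rspo3 0.412 and 1.00, the last from 7 KO cells above 0. In the E13.5 endocrine-like cluster, 356 WT and 47 KO cells, Fzd2 was lower in KO, at 0.957 against 2.05 in WT (log2 -1.10), rank 8149 of 8218, and above 0 in 42.6% against 55.6% of cells. It was 1 of 7 members called there, where 18.5% of all genes were. Sfrp5 in that cluster was 2.64 in WT and 3.67 in KO (log2 0.47), and Axin2 1.70 and 1.27 (log2 -0.42).

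**Figure D4:**
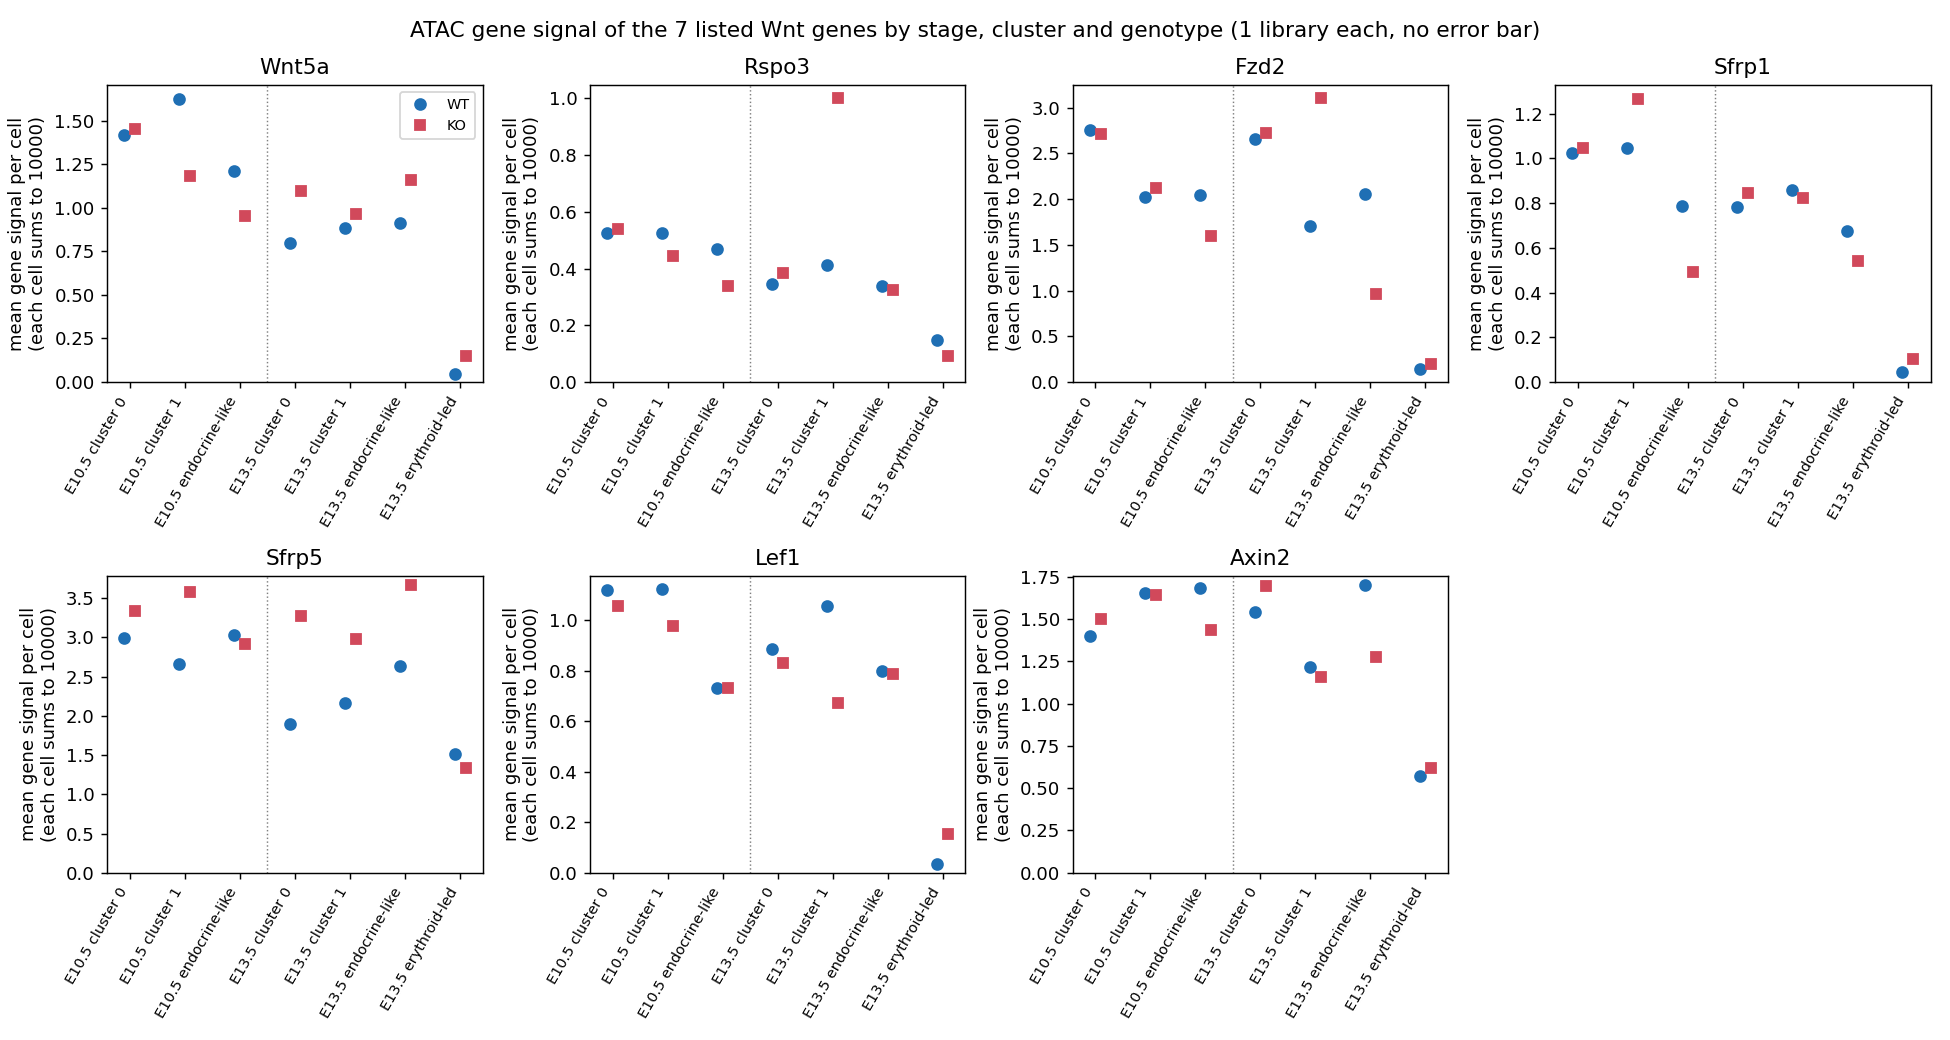
Mean gene-level ATAC signal per cell (vertical axis, each cell summing to 10000) of the 7 listed members in each cluster at E10.5, left of the dotted line, and at E13.5, right of it, for WT (circles) and KO (squares), with 1 library per point and no error bar. Sfrp5 is at 1.90 in WT and 3.28 in KO in cluster 0 at E13.5, and all 7 members have their lowest points in the erythroid-led cluster.

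Between stages, the signal of all 7 listed members over all cells was lower at E13.5 than at E10.5 in WT. Wnt5a was lowest against its earlier level (log2 -0.88, 1.47 at E10.5 and 0.802 at E13.5), followed by Rspo3 (log2 -0.55), so 2 of 7 were called, where 7.67% of all genes were. Without the erythroid-led cluster Wnt5a was at -0.79 and Rspo3 at -0.49, and 1 of 7 was called against 6.53% of all genes. In KO without that cluster 0 of 7 were called, against 5.24% of all genes, with Wnt5a at -0.30, Sfrp1 at -0.40 and Sfrp5 at -0.04. In the WT endocrine-like clusters of the stages 0 of 7 were called, against 15.3% of all genes. There Lef1 (log2 0.13), Axin2 (0.02) and Fzd2 (0.01) were above 0 and the other members below it. The stages also differ in the tissue dissected, so stage and tissue cannot be told apart, and these ratios use the same libraries as the comparisons of genotypes. In the wider list, 42 of 82 genes were listed and tested. Without the erythroid-led cluster at E13.5, 2 of these 42 were called, near the share of 3.72% over all genes: Sfrp5 was the 1 called higher in KO, and Lrp5, a Wnt co-receptor, the 1 called lower, at 2.29 in WT and 1.47 in KO (log2 -0.64).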

How the data were processed

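The authors deposited an RNA matrix of raw UMI counts per gene and cell, and 2 ATAC matrices of a gene-level signal, per the file headers and values. In the deposited signal each cell sums to 10000 over 8269 genes, so fragment depth is unknown. The tool behind the signal is not stated in the labels or headers. The submitters' processing notes name mm10. Library names in the barcodes gave each cell its sample.

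RNA cells with at least 1000 genes were clustered (scanpy 1.11.5, leidenalg 0.10.2, 2000 variable genes, 30 components, 15 neighbours, resolution 0.5) without Ptf1a and the Wnt list, and ATAC cells likewise at 0.3. Scrublet marked 4 WT and 7 KO doublets, which were kept. Clusters were named from 11 marker lists where the mean log2 ratio was at least 0.3 and at least 3 markers were raised. A name was not given where another list held as many of the top 10 genes, or more. It was also not given where another of the class lists had a higher mean and more markers raised. A mesenchyme-led cluster with Epcam UMIs in over 50% of its cells was left unnamed too. These thresholds were set after the clusters had been seen, and the names were rebuilt here. UMIs were summed per class and library and given as CPM with exact Poisson intervals. Shares have Clopper-Pearson intervals and ratios exact conditional ones, at 95% (scipy 1.17.1, numpy 2.4.6). PCR duplicates are removed by UMIs, and intervals cover counting error only. RNA log2 ratios use CPM plus 10, a pseudocount that understates differences of weak genes, and a minimum of 50 UMIs over both groups. ATAC ratios need a signal above 0 in 10% of cells in either library.

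The members and lists were chosen with earlier results of these data known. Other genes were named by rule: in each role the highest WT level, called genes, and for each member with at least 50 UMIs the 3 most similar genes. Wider-list genes without a call are among these as the highest of their role. The calculations were tested on simulated data: the true ratio lay within the interval for 95% of 200 changed genes in the progenitor-like comparison, over 5711 genes. The counts were drawn as Poisson, the model behind the intervals, so this checks the arithmetic and not variation between cells or embryos. The changed genes were drawn from those with at least 200 UMIs, which of the members only Fzd2 reached in that class. Figures used matplotlib 3.10.9.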

Additional observations from a re-analysis of the deposited data

How the results depend on the processing

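The count of members called between genotypes in RNA, 1 as reported (Sfrp5, mesenchyme-like), was 0 at resolution 1.0, with cells thinned to 2000 UMIs, with a pseudocount of 50 CPM, in mesenchyme-like cells with 0 Epcam UMIs and over all kept cells as 1 class, and 2 with a pseudocount of 1 CPM and with the mean of each cell's CPM. The settings with 0 Epcam UMIs, all kept cells, few endothelial markers and the finer progenitor cluster were chosen after seeing the data. Sfrp5 in progenitor-like cells was above 0 in 13 of 13 alternatives with a value (log2 0.33 to 1.08), and in mesenchyme-like cells in 11 of 11 (0.86 to 2.03). Among these, a changed minimum and settings that alter only another class could not move the value. Settings that left Sfrp5 under 50 UMIs gave no value, as in mesenchyme-like cells with 0 Epcam UMIs (1 and 3 UMIs). The count for mesenchyme over epithelium in WT, 1, was 2 with median-of-ratios scaling and with a pseudocount of 1 CPM. For the wider list in progenitor-like cells the count of 1 was 0 with thinning and with a pseudocount of 50 CPM, 2 with a pseudocount of 1 CPM and 3 at a minimum of 20 UMIs. In ATAC at E13.5 the count of 2 was 0 with the share of cells above 0, 1 without the erythroid-led cluster, 1 in cluster 0 alone, and 3 without the 10% of cells at each end of genes above 0, where Fzd2 reached -0.73. Under the erythroid-free and cluster 0 settings Sfrp1 turned from -0.63 to 0.00 (0.00287) and 0.11, Wnt5a to 0.34 and 0.46, Rspo3 to 0.39 and 0.16, Fzd2 to 0.22 and 0.03, and Axin2 to 0.10 and 0.14. The count between stages in WT, 2, was 1 without the erythroid-led cluster and 3 without the cells at each end. Sfrp5 in ATAC stayed above 0 at E10.5 (0.10 to 0.25, 5 alternatives) and at E13.5 (0.20 to 0.79, 6 alternatives). The alternatives that change only the minimum could not move these ratios. The count of members highest in mesenchyme-like cells, 5, was 4 to 5. Resolution 0.3, resolution 0.8, clustering with all genes and no cell filter did not give all 4 classes, so the counts over classes have no value there. No paired analysis was possible because each group had 1 library and no test was run. Where a call was lost with fewer cells or UMIs, the cause was not tested. Depth limits Wnt5a, Lef1 and Lgr5 most, with 39, 45 and 22 UMIs.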
